A study of Mus musculus with 2 samples.

Results

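The microRNAs of the sensory epithelium cluster (mmu-miR-183, mmu-miR-96 and mmu-miR-182, below without the prefix) were examined in the mouse tongue primordium at the embryonic stages E10.5 and E11.5. They were taken by name from the array design, with every probe they have there, and make up 3 of its 1080 miRNAs and 6 of its 2780 probes. The tissue was the medial mandibular arch. The embryos were of the outbred ICR stock, with no further treatment or genotype given in the labels. RNA of 40 embryos was pooled at E10.5 and RNA of another 40 at E11.5, and each pool was hybridised with Cy3 label to 1 array. Per the series description, myoblast differentiation starts in this window. With 1 array per stage there was no replicate and no test, so every value describes these 2 arrays and every error is the spread over the repeated spots of a probe within an array.

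The 3 miRNAs are cut from one polycistronic primary transcript. They are known for high expression in sensory cells, among them hair cells of the inner ear, photoreceptors and sensory neurons, and changes in the seed of miR-96 cause progressive hearing loss in mice and humans. A miRNA pairs with its target messages mainly through its seed, bases 2 to 8 counted from the 5′ end. Known targets of miR-96 and miR-182 include Foxo transcription factor messages and Mitf, the regulator of pigment cells.

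The mature sequences show how alike the 3 members are, and the capitals mark the seed. They were taken from RefSeq (GRCm38.p6, minus strand of chromosome 6), where the array names match the 5p arms and where all 3 members were found.
miR-183: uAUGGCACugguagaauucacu
miR-96: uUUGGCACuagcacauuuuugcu
miR-182: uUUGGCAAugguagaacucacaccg
No pair shares the whole seed. Substitutions are written as the base of the first miRNA named, the position from its 5′ end and the base of the second. Between miR-96 and miR-182 the seeds differ by C8A alone, and between miR-183 and miR-96 by A2U alone. Between miR-183 and miR-182 they differ by A2U and C8A. Over their whole length miR-183 and miR-182 are the closest pair, with 18 of 22 bases identical when aligned from base 1. The substitutions outside the seed in that pair are U17C and U22A. miR-96 has 13 of 22 bases in common with miR-183 and 12 of 23 with miR-182. Of the 1023 mouse miRNAs on the array, 839 could be matched to a RefSeq mature sequence, and no other one of these shares bases 2 to 8 with a member. In RefSeq, miR-1271-5p has the seed of miR-96, and it was not measured here.

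The hairpins are shown because both arms of each were probed, with the 5p arm in capitals.
Mir183: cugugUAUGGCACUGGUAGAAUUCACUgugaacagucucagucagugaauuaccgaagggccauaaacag
Mir96: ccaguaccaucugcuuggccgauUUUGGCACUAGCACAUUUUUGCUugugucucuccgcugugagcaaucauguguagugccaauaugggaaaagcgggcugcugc
Mir182: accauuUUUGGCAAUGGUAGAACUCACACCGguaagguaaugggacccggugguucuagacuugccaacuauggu
The RefSeq hairpins are 70, 106 and 75 bases long. All 3 lie within the span of the long noncoding RNA gene Mirc35hg in the RefSeq gene table, between the protein-coding genes Nrf1, which encodes nuclear respiratory factor 1, and Ube2h, which encodes a ubiquitin-conjugating enzyme.

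Each member was read by a pair of probes that differ by 1 added base. The probe sequences are given as DNA, 5′ to 3′, with that added base in capitals.
miR-183 probe 1: agtgaattctaccagtgc
miR-183 probe 2: agtgaattctaccagtgcC
miR-96 probe 1: agcaaaaatgtgctagtgcca
miR-96 probe 2: agcaaaaatgtgctagtgccaA
miR-182 probe 1: cggtgtgagttctac
miR-182 probe 2: cggtgtgagttctacC
All 6 are complementary to the 3′ end of their miRNA without a mismatch, and the longer probe of each reaches back to base 4 in miR-183, base 2 in miR-96 and base 10 in miR-182. The miR-182 probes therefore do not touch the seed. The longest stretch of a probe's target that recurs in another member is 8 bases, in both miR-183 probes. Whether the probes read each other's miRNA was not tested. The array files place the targets of the longer probes on chromosome 6 of build mm9, at 30119677 to 30119694 for miR-183, 30119471 to 30119491 for miR-96 and 30115934 to 30115948 for miR-182. Measured between the higher-numbered ends of those targets, miR-183 and miR-96 lie 203 bp apart and miR-182 lies a further 3543 bp away. The files put the other arm of the miR-183 hairpin 39 bp above the main arm, whereas on the minus strand in RefSeq it lies below (a difference of -39 bp), and the same turn of sign holds for miR-96 (41 and -41) and miR-182 (39 and -39). The arm positions in the files thus follow the order of a plus-strand hairpin, and the coordinates above carry this limit.

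Across the arrays, E10.5 had 144 detected miRNAs and E11.5 had 199, a probe being called detected where its well-above-background spots made up 50% or more. There were 137 miRNAs detected at both stages, through 218 probes. Negative control spots averaged 7.87 ± 6.16 (SD over 1000 spots) at E10.5 and 5.88 ± 5.60 on the E11.5 array, and the lowest detected probes lay at 30.9 and 29.5. The E11.5 array was brighter, with a median log2 ratio of 1.24 over the 137 miRNAs before scaling, and 124 of the 137 were brighter there. Intensities below are the unscaled processed signal in arbitrary units.

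The intensities of the 3 members were close at the 2 stages, while most other miRNAs were brighter at E11.5. Relative to those other miRNAs, all 3 were therefore lower at E11.5 by 2.20-fold to 2.78-fold once the arrays were put on a common scale, through division by the 75th percentile of the probes detected on both (194 for E10.5 and 482 for E11.5). With 1 array per stage, a brighter array and more miRNA in the tissue cannot be told apart. In RNA from a whole tissue, fewer cells that make a miRNA and less of it per cell cannot be told apart.

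miR-183 was detected by both probes on every spot. Its longer probe (probe 2) gave 138 ± 5.42 (SD over 19 spots) at E10.5, with spots from 123 to 146 and a median of 139, and 134 ± 11.4 (20 spots) at E11.5, from 113 to 152 with a median of 136. The spots of the 2 stages overlapped, with 11 of the 20 at E11.5 inside the range seen at E10.5. The shorter probe gave 51.9 ± 7.63 against 52.0 ± 8.37 (20 spots each), and there 19 of 20 spots lay inside that range. The unscaled log2 difference, E11.5 minus E10.5, was thus -0.019 ± 0.038 (spot SE) over both probes, a ratio of 0.987. After scaling it was -1.33 ± 0.038 (spot SE), or 2.52-fold lower at E11.5, with -1.31 for the shorter and -1.36 for the longer probe.

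miR-96, the member whose seed is linked to hearing loss, was the only one of the 3 with a positive mean difference before scaling. The unscaled difference of miR-183 lay within its spot SE of 0. The longer miR-96 probe gave 85.8 ± 5.51 (19 spots, 76.0 to 96.4, median 85.2) at E10.5 and 96.1 ± 9.22 (20 spots, 80.5 to 114, median 95.2) at E11.5. The shorter one gave 53.8 ± 6.82 and 61.3 ± 6.07 (20 spots each). The spots overlapped here too, with 12 and 17 of the 20 at E11.5 within the range at E10.5. The unscaled difference was 0.18, a ratio of 1.13. After scaling miR-96 was at -1.14 ± 0.032, or 2.20-fold lower, the smallest scaled difference of the 3, and its probes gave -1.13 and -1.15.

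miR-182 was detected by 1 of its 2 probes. The longer probe gave 40.2 ± 5.52 (20 spots, 28.3 to 49.4, median 41.5) at E10.5 and 35.9 ± 6.15 (20 spots, 25.9 to 47.9, median 35.4) at E11.5, close to the lowest detected probe of each array. Of these spots 19 of 20 were well above background at E10.5 and 15 of 20 on the later array, and 18 of 20 there lay in the range at E10.5. The shorter probe, which lacks a single base, stayed at background, at -1.21 ± 5.75 (20 spots) and 1.80 ± 4.83 (17 spots). The value of miR-182 therefore rests on 1 probe near the detection limit. Its unscaled difference was -0.16, a ratio of 0.893, and its scaled difference -1.48 ± 0.071, or 2.78-fold lower at E11.5.

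**Figure D1:**
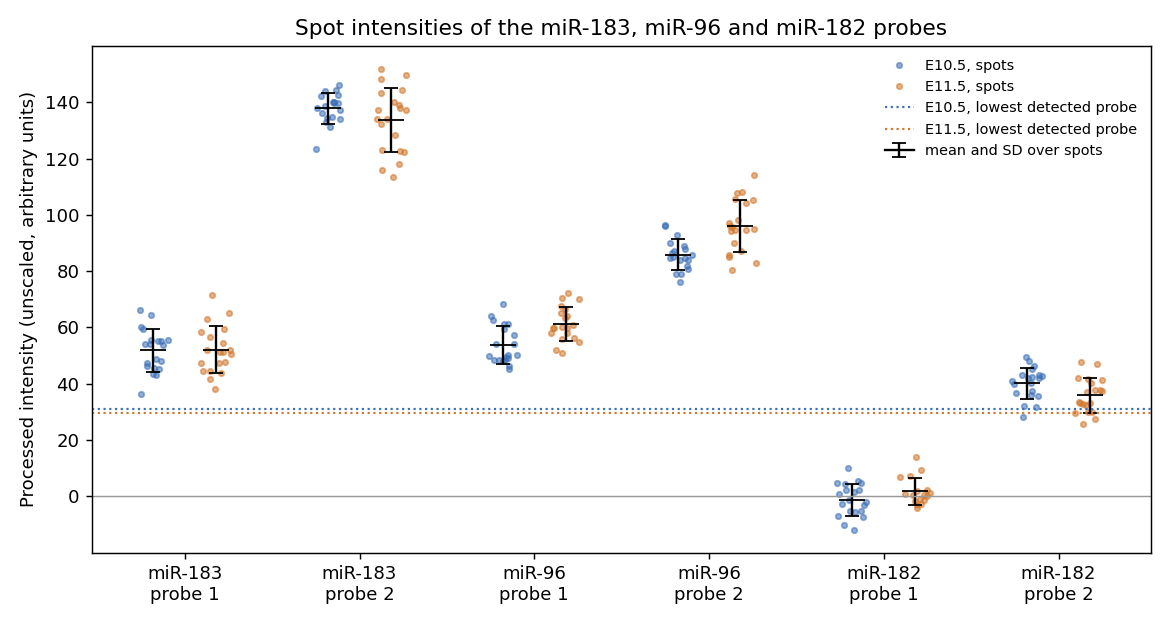
Unscaled processed intensity (arbitrary units) of every spot used for the 6 probes, E10.5 in blue and E11.5 in orange, with mean and SD over spots in black and each array's lowest detected probe as a dotted line. The spots of both stages overlap for every probe, the longer miR-183 probe sits at 138 and 134, and the shorter miR-182 probe lies at background (-1.21 and 1.80).

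Against each other, the members' scaled differences spanned 0.34 on the log2 scale. miR-96 lay above miR-183 by 0.20 ± 0.050 and above miR-182 by 0.34 ± 0.078 (spot SEs), which is 3.91 and 4.36 times the spot SE. miR-183 lay above miR-182 by 0.14 ± 0.081, or 1.79 times the spot SE. Spot error leaves out the variation between arrays and between RNA pools, so none of these gaps was measured against a biological spread. Quantile normalization moved miR-182 above miR-183 (-1.14 against -1.24), with miR-96 close to miR-182 at -1.09. miR-96 remained the highest of the 3 in every setting that measured it. Settings that only divide each array by 1 number cannot change this order.

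All 3 members were at least 2-fold lower at E11.5 after scaling, beside 13.9% of the 137 measured miRNAs (19). Their median was -1.33, against -0.069 over all measured miRNAs, and lower by any amount were 52.6% (72). Counted from the lowest difference among the 137, miR-182 held rank 4, miR-183 rank 12 and miR-96 rank 18. Dividing an array by 1 number leaves these ranks as they are, so they hold without scaling as well. Unscaled, 0 of the 3 were 2-fold lower, as was 0% of all measured miRNAs. miR-182 and miR-183 were among the 9.49% (13 of 137) that were dimmer at E11.5, miR-183 by less than its spot SE. Unscaled, 64.2% (88) were at least 2-fold brighter at E11.5, and no member was. Scaling on the 20 control probes detected on both arrays, which were brighter at E11.5 by a mean log2 ratio of 0.55, placed the members between, at -0.57 for miR-183, -0.38 for miR-96 and -0.72 for miR-182.

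**Figure D2:**
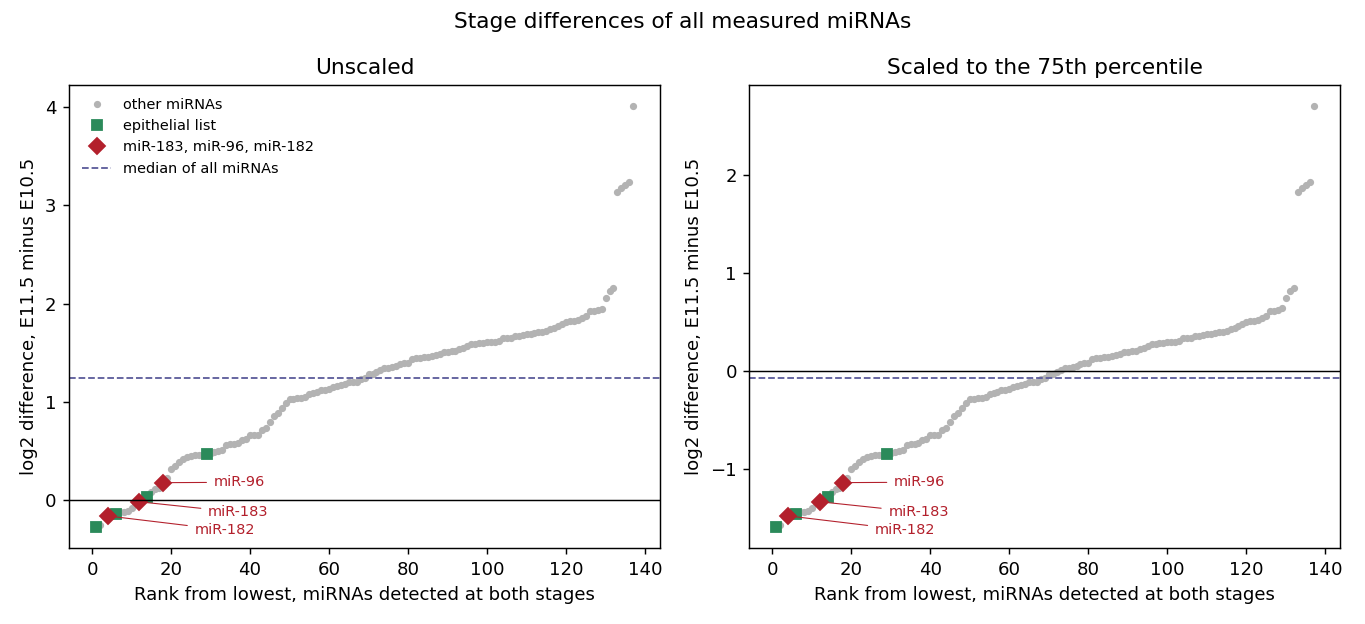
The log2 difference, E11.5 minus E10.5, of the 137 miRNAs detected at both stages (vertical axis) against their rank from the lowest (horizontal axis), unscaled on the left and scaled on the right, with the 3 members as red diamonds, the measured epithelial miRNAs as green squares and the median of all as a dashed line. The members hold ranks 4, 12 and 18 in both panels, near 0 in the left (-0.16, -0.019 and 0.18) and below -1 in the right.

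The deposited value table, in which the authors had normalized the arrays by a method not given in the sources used here, also placed the members lower at E11.5. It holds 94.7 and 37.2 for miR-183, 70.2 and 31.4 for miR-96, and 19.1 and 5.12 for miR-182 at E10.5 and E11.5. The log2 differences were -1.35, -1.16 and -1.90, beside 16.6% of 169 miRNAs in the table that were at least 2-fold lower (28). The table was made from the same 2 arrays, so it is another scaling of the same measurement.

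**Figure D3:**
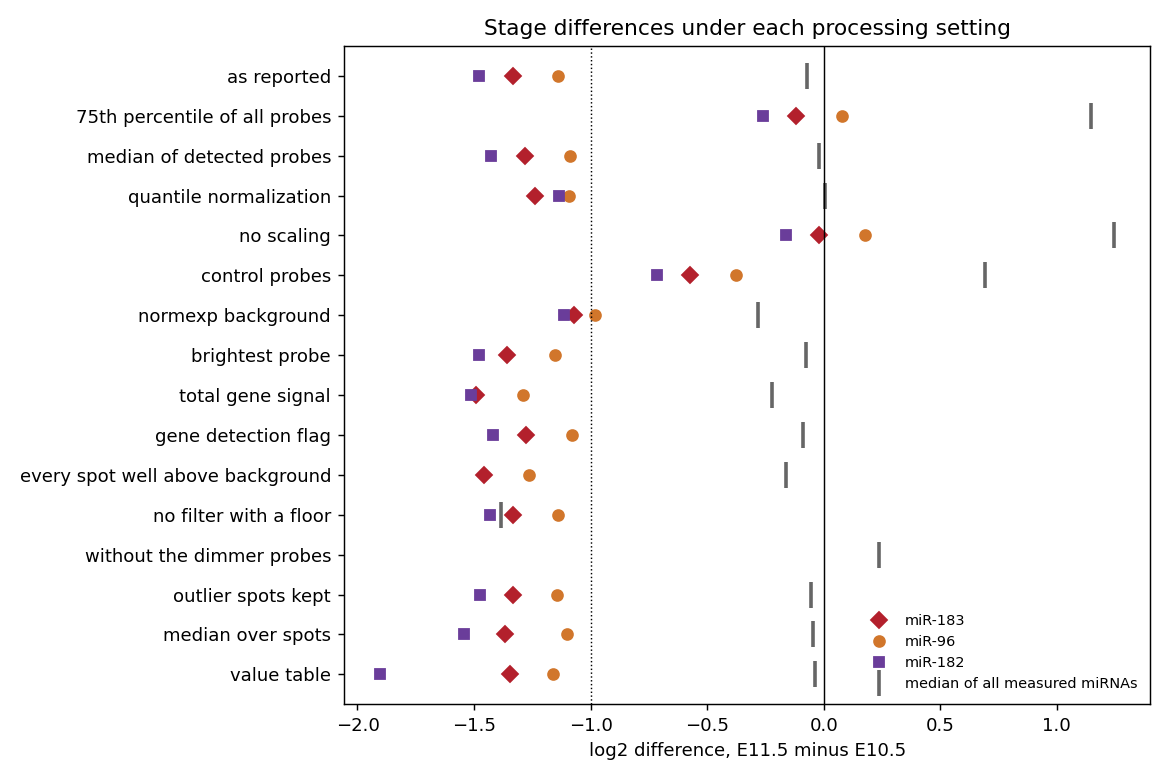
The log2 difference, E11.5 minus E10.5, of each member (horizontal axis) under each processing setting (one per line), with the median of all measured miRNAs as a grey bar and the 2-fold line dotted. The members move with the scaling, from -1.33 as reported to -0.019 without scaling for miR-183. They lie left of the grey bar in every setting that measured them except the one with no filter and a floor. There the bar is at -1.38 and only miR-182 lies left of it. Settings that only divide each array by 1 number move the members and the bar together, so they cannot change this.

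The opposite arms of the 3 hairpins gave no signal above background. miR-183*, read by 4 probes, ranged from -4.69 to 1.99 on the E10.5 array and from -5.47 to 4.45 on the E11.5 array. miR-96* gave 0.81 and 1.97 at E10.5 and -0.94 and 3.78 at E11.5. miR-182* gave 2.01 and 1.44 at E10.5 and 0.88 and 0.74 at E11.5. No spot of these 8 probes was well above background on either array, so the stages could be compared for the 5p arms only.

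Other miRNAs near the cluster did not share 1 pattern. Within 2 Mb of the members in mm9, the array names 8 further mature miRNAs. The nearest, 572 kb away, are both arms of miR-335, which lies in the imprinted gene Mest. miR-335-3p was at -1.57 ± 0.049 after scaling and at -0.26 unscaled, below the members, while miR-335-5p was at -0.15 ± 0.030 and 1.17. miR-129-1-3p was detected at E10.5 only, with its brighter probe at 39.9 against 13.5 at E11.5. miR-129-5p, miR-29a, miR-29b, miR-29a* and miR-29b-1* were below the detection rule on both arrays, and none of their probes exceeded 7.59.

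Among the miRNAs measured at both stages, the 5 others nearest to the members' median in scaled difference were miR-466i-5p (-1.34 ± 0.022), miR-3072* (-1.32 ± 0.039), miR-429 (-1.28 ± 0.028), miR-494 (-1.39 ± 0.061) and miR-574-5p (-1.43 ± 0.064). Likeness here is the distance between 2 differences over 1 pair of arrays. One of the 5, miR-429, belongs to the miR-200 family, which maintains the epithelial state by repressing Zeb1 and Zeb2. Their unscaled differences ran from -0.11 for miR-574-5p to 0.031 for miR-429, so these miRNAs too had nearly the same intensity on both arrays.

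Epithelial miRNAs, which mark a tissue layer from which sensory cells arise, had the median closest to that of the members among the lists with a value. The array holds 7 of them, of which E10.5 had 4 detected and E11.5 had 5. The 4 measured at both had a median of -1.37 after scaling and -0.058 before it, against -1.33 and -0.019 for the members. Unscaled, 0% of the 137 measured miRNAs were at least 2-fold lower. After scaling 13.9% (19) were, and of the 4 epithelial ones 3 were. Lowest was miR-200c (-1.59 ± 0.034), followed by miR-200b (-1.46 ± 0.027) and miR-429 (-1.28). miR-205, which marks stratified epithelium, was at -0.85 ± 0.018, and unscaled it was brighter at E11.5 by 0.46. miR-203, of differentiating epidermis, was detected only on the brighter E11.5 array (34.0 unscaled, and 20.6 at E10.5). It has no scaled difference, so a rise relative to other miRNAs was not measured. miR-200a and miR-141 were not detected at either stage. The summed intensity of all 14 epithelial probes went from 1048 (E10.5) to 1146 (E11.5), and that of the 6 member probes was 368 and 381. The retina and lens list and the skeletal muscle list had no value, and the erythroid and endothelial lists rested on 1 miRNA each. The neural and sensory neuron list rested on 2 and the mesenchymal list on 3. Members and lists were chosen with earlier results of these data known, so the closeness of their medians is not independent evidence. The 19 miRNAs at least 2-fold lower also included miR-20b (-1.44), miR-17 (-1.44), miR-20a (-1.24) and miR-92a (-1.21). These are on none of the lists, so values like the members' were not particular to epithelial miRNAs. Whether a change in the share of epithelium has a part in the members' values was not tested.

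Most miRNAs of the neural and sensory neuron list and of the retina and lens list were not detected. The whole array was alike in this, with 13.3% of its 1080 miRNAs passing the detection rule for E10.5 and 18.4% for E11.5. Few detected miRNAs were thus not particular to these lists, and an absence of neural or sensory cells was not tested. No list was made for hair cells or for photoreceptors alone, so markers of those cells were not examined. None of the 3 retina and lens miRNAs (miR-204, miR-211 and miR-184) was detected at either stage, and their summed intensity was 58.6 and 55.8. Of 9 neural and sensory neuron miRNAs, E10.5 had 2 detected and E11.5 had 3. The defining pair miR-124 and miR-9 gave at most 1.33 (E10.5) and 2.83 (E11.5). miR-7a was at -0.86 ± 0.071 and miR-218 at 0.50 ± 0.063 after scaling, and miR-128 was detected at E11.5 only. The neural list's summed intensity was 163 at E10.5 and 433 at E11.5, while that of the members was 368 and 381. Lists for mesenchyme and skeletal muscle were examined too. Of 5 mesenchymal miRNAs 3 were measured at both stages, with a median of 0.081 after scaling and 1.39 before it. Of 4 skeletal muscle miRNAs E10.5 had 0 detected and E11.5 had 4. The erythroid miR-451 and the endothelial miR-126-3p were at -0.60 ± 0.033 and -0.81 ± 0.012, between the 3 measured mesenchymal miRNAs and the members. Each was the only one of its list of 2 that was detected.

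No member probe reached the median brightness of the detected probes on both arrays. A probe had to reach each array's own median, so one of unchanged intensity could fall out on the brighter E11.5 array. With probes at or above the median brightness only, 66 miRNAs remained, no member was among them, and 4 were at least 2-fold lower. With normexp, which models background and signal together, and an offset of 50, the members were at -1.07, -0.98 and -1.12 in the order miR-183, miR-96, miR-182. The median over all miRNAs was -0.28. Such an offset compresses ratios of dim probes. Whether that moved the members, whose intensities were close at both stages before scaling, was not tested.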

How the data were processed

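Per the labels' protocols, total RNA pooled from 40 embryos per stage was labelled with Cy3. Per the file headers, each spot's deposited 1-colour intensity had its background subtracted and a spatial trend removed, with no normalization between arrays (Feature Extraction 10.7.1.1, design 031184, build mm9). The submitters' processing notes name version 9.5.1.1. Outlier spots (2058 and 2118 of 43200) were left out, spots were averaged per probe, and both arrays were scaled by the 75th percentile of the probes detected on both. A miRNA's log2 difference (E11.5 minus E10.5) was averaged over such probes, with an SE propagated from the spots. No spot was saturated. The number of arrays limits the precision.

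Named were the members, their other arms, miRNAs sharing bases 2 to 8, those within 2 Mb, measured epithelial miRNAs and the 5 nearest in difference. Other list members were named after their values were seen. Members and lists were chosen with earlier results of these data known. Steps were tested on simulated data. Alternatives covered scaling, background, detection, probe summary and the value table. Python 3.11.15, numpy 2.4.6, pandas 2.3.3, R 4.3.3 and limma 3.58.1 were used.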

Additional observations from a re-analysis of the deposited data

How the results depend on the processing

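Of the 3 members, miR-96 changed direction, in 2 settings, both of them other scalings between the arrays. miR-183 and miR-182 were below 0 in every setting that gave them a value and differed in size. Unscaled, however, miR-183 lay within its spot SE of 0 (-0.019 ± 0.038), so its sign there is not resolved. Without scaling the log2 differences were -0.019 (miR-183), 0.18 (miR-96) and -0.16 (miR-182), the epithelial median was -0.058, and 0 members and 0 miRNAs were 2-fold lower. With the 75th percentile of all probes they were -0.12, 0.077 and -0.26, with the epithelial median at -0.16 and counts of 0 and 0. With control probes they were -0.57, -0.38 and -0.72, with -0.61 and counts of 0 and 0. With normexp they were -1.07, -0.98 and -1.12, the epithelial median was -1.10, and 2 members and 14 miRNAs were 2-fold lower. Quantile normalization gave -1.24 for miR-183, -1.14 for miR-182 and -1.45 for the epithelial median. The total gene signal gave -1.49 for miR-183, -1.29 for miR-96 and -1.50 for the epithelial median. With detection by every spot miR-182 had no value, miR-183 was at -1.46, miR-96 at -1.26 and the epithelial median at -1.50. The value table gave -1.90 for miR-182 and -1.25 for the epithelial median, and the gene detection flag -1.01 for the latter. Without the dimmer probes no member had a value, the epithelial median was -0.90 and 4 miRNAs were 2-fold lower. With no filter and a floor, 937 of 1080 miRNAs were 2-fold lower, since each miRNA under both floors takes the ratio of the floors (a median of -1.38). The cause was not tested for the other settings. The median of detected probes, the brightest probe, outlier spots kept and the median over spots kept each member within 2 spot SEs of its reported value. No paired analysis was possible because each stage has 1 array, and for the same reason no replicate could be left out.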

Other observations

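In the deposited value table, miR-182 at E11.5 stood apart from miR-183 and miR-96. The table divided by the total gene signal of the scanner files was 1.76 for miR-183, 1.78 for miR-96 and 1.74 for miR-182 at E10.5. At E11.5 the ratio was 0.708 and 0.705 for miR-183 and miR-96 and 0.481 for miR-182. Over the 169 miRNAs above the table's floor at both stages, this ratio had a median of 0.698 at E11.5, with a 10th percentile of 0.603. Its minimum was 0.175, so a ratio as low as that of miR-182 was not particular to it. The total gene signal of miR-182 itself differed by -0.049 (log2, E11.5 minus E10.5). The larger difference of miR-182 in the table (-1.90, against -1.48 from its probe) goes with this lower ratio.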
